A study of Mus musculus with 9 samples.

Results

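The comparison described here set the livers of mice given oleanolic acid (OA), a plant triterpenoid that served to bring on cholestatic liver injury, against the livers of mice given only its vehicle, corn oil (Cont). It took the 3 OA and the 3 Cont libraries, 6 of the 9 in the series, as their sample labels name them, and no measured value was used to choose them. All 9 mice were male wild-type C57BL/6J animals of 6 to 8 weeks. OA livers came from mice given OA by gavage on 4 consecutive days, with the dose given as 295.5 mg/kg in one label and 295.92 mg/kg in the treatment protocol. Cont livers came from mice given corn oil by the same route over the same days. By the protocol, mice not given ZnPP, a heme oxygenase inhibitor, had saline injected into the abdomen 2 h before the gavage, and by the study's methods all mice were fasted for 12 h before tissue was taken. The remaining 3 libraries (ZnPP+OA), from mice given ZnPP before OA, entered the choice of tested genes, the scaling and the estimate of the spread. Their own levels are not compared here. The RNA was from whole liver tissue, so fewer cells of a type and less RNA per cell cannot be told apart in any value below. Each library came from 1 mouse, and p-values measure the spread between mice within 1 experiment.

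In cholestasis the flow of bile fails, and bile acids and bilirubin build up in the liver. Hepatocytes take both up from blood through transporters of the sinusoidal membrane, conjugate them, and export them through canalicular pumps, with further exporters on the blood side. Injured hepatocytes are known to switch on genes of glutathione and thioredoxin metabolism through the transcription factor Nrf2, while resident macrophages (Kupffer cells) and blood-borne phagocytes clear dead cells. The question of the comparison was which of these gene programmes differed in the livers given OA.

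Libraries held 59521589 to 85060187 counts in OA and 32639438 to 61915825 counts in Cont livers, over 36119 genes. Mitochondrial RNA, with the nuclear copies of its genome, took 47.5%, 24.6% and 17.4% of the counts in OA 1, OA 2 and OA 3, against 53.7%, 92.0% and 58.6% in Cont 1, Cont 2 and Cont 3. Cont 2 stood apart, with only 4946748 counts on all other genes. The ribosomal RNA gene Rn18s-rs5, a sign of RNA that escaped selection for poly(A) tails, took 0.47% to 0.69% of the other counts in OA and 2.11% to 4.55% in Cont livers. These shares moved with the groups, and their part in the results below was not tested. Levels are given in CPM, counts scaled to 1000000 counts of the library size after scaling by TMM, a method that discounts the genes taking up most of a library. They are given in the order OA 1, OA 2, OA 3 and Cont 1, Cont 2, Cont 3, and are not scaled by gene length, so they compare livers and not genes.

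Of 18895 tested genes, 984 differed between OA and Cont livers at an adjusted p under 0.05 from edgeR, which was 5.21%. Higher genes numbered 454 (2.4%) and lower genes 530 (2.8%). These shares are the background for the counts of called genes in every list below. Of all 18895 tested genes, 4146 had an unadjusted p under 0.05 from edgeR in either direction, and DESeq2 called 824 higher and 1603 lower. List counts at an unadjusted p or by DESeq2 are to be read against those numbers. The falls went further than the rises. The median log2 fold change was 1.84 among higher and −2.72 among lower genes, against 0.09 over all tested genes. Differences of at least 4 on the log2 scale were found for 18 of the higher and 144 of the lower genes. Of the called genes, 13 had overlapping OA and Cont livers. Over all tested genes, every OA liver lay above every Cont liver in 3490 and below in 2011. Without scaling for composition, with library totals alone, the split was 2829 higher and 209 lower, and with DESeq2 size factors it was 316 and 634. These scalings moved the median of all genes by 1.39 and by −0.16, so each list below is read against that median. The spread among mice was wider in Cont than in OA livers, with biological coefficients of variation of 0.421 in OA and 0.885 in Cont. Calls numbered 242 without OA 2, 264 without OA 3, 656 without Cont 2 and 262 without Cont 1 and Cont 2 together.

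**Figure D1:**
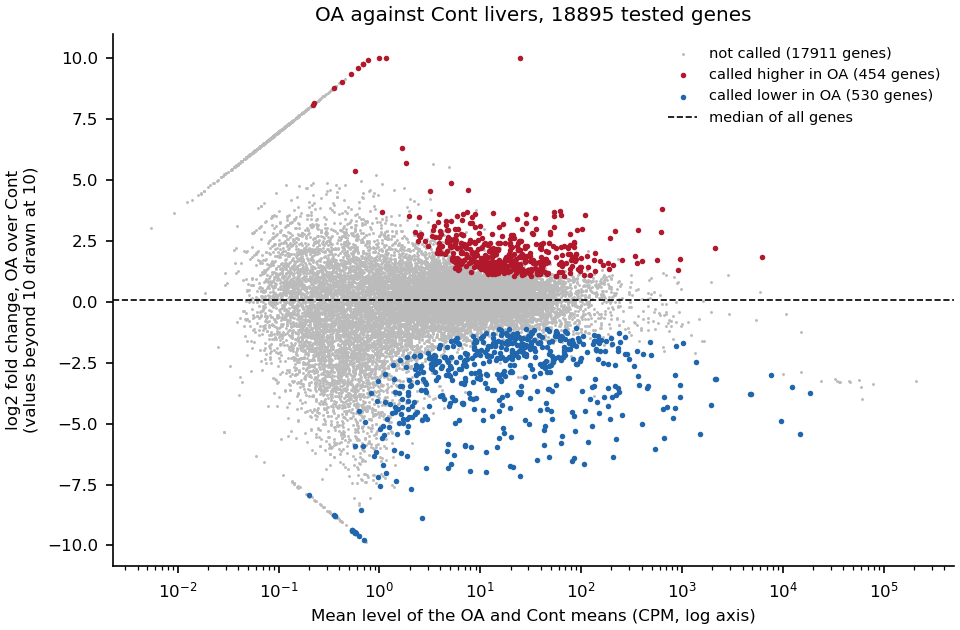
Log2 fold change of OA over Cont livers (vertical axis) against the mean level of the gene in CPM (horizontal log axis), 1 point for each of the 18895 tested genes, with the 454 higher and 530 lower genes in colour. Straight diagonal rows of points at the left are genes at 0 in 1 group, whose fitted values depend on the prior count; the called genes reach further below 0 than above it.

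**Figure D2:**
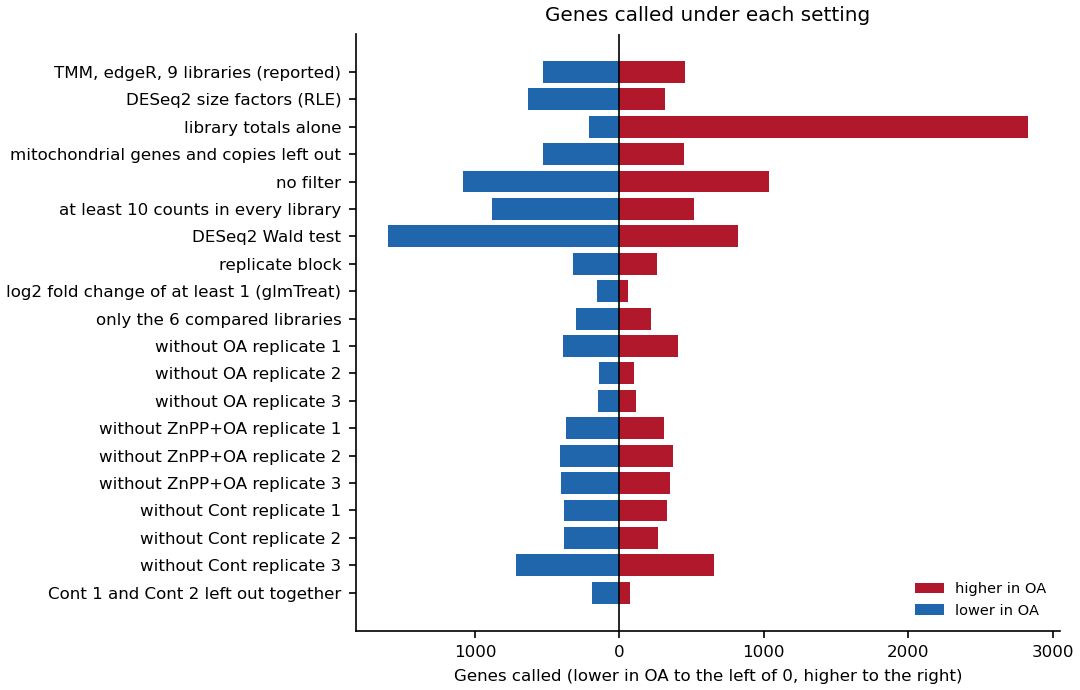
Genes called higher (right of 0) and lower (left of 0) in OA than in Cont livers under each way of processing the counts. The 984 calls of the fit to all libraries lie between 242 without OA 2 and 3038 with library totals alone, and with those totals 2829 genes were higher and 209 lower.

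A group of genes that defend against oxidants was higher in OA livers. Of 30 tested genes of the Nrf2 list, which holds the factor, its inhibitor Keap1 and known targets, 8 were called higher, against 2.4% of all tested genes, and 20 were above every Cont liver in all OA livers, against 18.5% of all tested genes. The median log2 fold change of the list was 1.16, against 0.09 for all genes. Without Cont 2, OA 2 or OA 3 in turn, 6 members were called each time. Srxn1, which encodes the sulfiredoxin that repairs overoxidised peroxiredoxins, was at 155, 200.4 and 187 CPM in OA livers, against 18.0, 30.6 and 20.7 CPM in Cont livers. All OA livers were several times above the highest Cont liver, with a log2 fold change of 2.97 ± 0.40 SE (edgeR, adjusted p = 0.00181). Gclc, the catalytic subunit of the enzyme that begins glutathione synthesis, was at 439.8, 256 and 300.5 CPM in OA livers, against 54.3, 69.7 and 38.6 CPM in Cont livers. Its log2 fold change was 2.62 ± 0.37 SE (edgeR, adjusted p = 0.00216), and OA 1 was the highest liver. Gclm, the modifier subunit of the same enzyme (named after its values were seen), was at 36.2, 37.1 and 44.3 CPM in OA livers, against 39.8, 32.9 and 26.2 CPM in Cont livers, with overlapping groups and a log2 fold change of 0.25 ± 0.29 SE (edgeR, adjusted p = 0.67). The carbonyl reductase gene Cbr3 was at 9.63, 17.6 and 17.9 CPM in OA livers, against 1.21, 1.83 and 1.06 CPM in Cont livers, which made a log2 fold change of 3.48 ± 0.47 SE (edgeR, adjusted p = 0.00187). Pgd, an enzyme of the pentose phosphate pathway that supplies NADPH, was at 66.3, 80.9 and 78.2 CPM in OA livers, against 12.9, 20.0 and 21.4 CPM in Cont livers, again without overlap, and rose by 2.06 ± 0.34 on the log2 scale. Gsta1, a glutathione transferase that shares much of its sequence with neighbouring genes, so that its reads may be split among them, rose by 3.56 ± 0.71 on the log2 scale.

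The gene of the factor itself passed the test, and Hmox1, on which the study centred, did not. Nfe2l2, which encodes Nrf2, was at 50.4, 65.4 and 50.7 CPM in OA livers, against 15.6, 19.9 and 30.5 CPM in Cont livers, higher in all OA livers with a log2 fold change of 1.33 ± 0.32 SE (edgeR, adjusted p = 0.0334). That call was lost without Cont 1, Cont 2, OA 2, OA 3 or ZnPP+OA 1, with adjusted p up to 0.151. Hmox1, the heme oxygenase that opens the heme ring, was at 40, 46.4 and 52.8 CPM in OA livers, against 30.6, 18.6 and 13.5 CPM in Cont livers. The groups did not overlap, but the log2 fold change of 1.15 ± 0.34 did not pass the test (SE, edgeR adjusted p = 0.0693). Hmox1 passed in 1 of the 9 fits without 1 library, the one without Cont 1, its highest Cont liver. There the log2 fold change was 1.56 (adjusted p = 0.0246 from edgeR), and in the others adjusted p reached 0.227. Nqo1, a quinone reductase, was at 6.72, 8.18 and 7.17 CPM in OA livers, against 5.53, 0.915 and 0.670 CPM in Cont livers, where Cont 1 stood close to the OA livers and the other Cont livers far below, and its log2 fold change of 1.63 ± 0.72 did not pass (adjusted p = 0.208 from edgeR). Nqo1 was called in 1 of the 9 fits without 1 library, the one without Cont 1. There the log2 fold change was 3.26 (adjusted p = 0.0111 from edgeR), and in the others adjusted p reached 0.391. Keap1, which holds Nrf2 in the cytoplasm for degradation, had a log2 fold change of 0.50 ± 0.28 and did not pass either. Of 21 genes of superoxide and peroxide removal, 3 were called higher, Gpx3, Gpx4 and Prdx5, with log2 fold changes of 1.52 to 1.85. None of the 3 was called without OA 2 or without OA 3. Sod2, the superoxide dismutase of mitochondria, had a log2 fold change of 0.45 ± 0.40 (SE, edgeR adjusted p = 0.56).

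Metallothioneins, small proteins that bind zinc and copper, were called higher under every library left out. Mt1 was at 1381, 1165 and 743 CPM in OA livers, against 254, 121 and 82.5 CPM in Cont livers. Even the lowest OA liver was well above the highest Cont liver, with a log2 fold change of 2.85 ± 0.47 SE (edgeR, adjusted p = 0.00546). Mt2 was at 430.2, 378 and 338 CPM in OA livers, against 83.1, 45.0 and 25.2 CPM in Cont livers, with a log2 fold change of 2.90 ± 0.43 SE (edgeR, adjusted p = 0.00303). Among 14 tested members of the metallothionein and zinc list, only these 2 were called. Promoter windows of 4 of the genes that rose are shown because 2 short motifs occur in them. In windows of 250 bases before to 50 after the start of transcription (RefSeq, GRCm38.p6), the letters TGACNNNGC of the antioxidant response element, which Nrf2 binds, were searched on both strands. So were the letters TGCACNC of the metal response element, bound by the zinc sensor Mtf1. They occurred in 12.4% and 12.6% of all 32851 windows. Among called genes with a window they occurred in 4 of 7 of the Nrf2 list and in both metallothioneins. TGACNNNGC was in 16.3% of windows of genes called higher and 14% of those not called, and TGCACNC in 11.3% and 12.9%. A match is a run of letters and not a measured binding site. In Srxn1 and Pgd it lies within the 50 bases after the start of transcription, not before it, as does the later match in Mt1. Pgd has 2 windows, and the first with a match is shown. The windows below run 5′ to 3′ along each gene's strand, and capitals mark, on either strand, TGACNNNGC in Srxn1 (chr2:152105274-152105573, + strand) and Pgd (chr4:149166033-149166332, − strand), and TGCACNC in Mt1 (chr8:94178839-94179138, + strand) and Mt2 (chr8:94172368-94172667, + strand).
Srxn1: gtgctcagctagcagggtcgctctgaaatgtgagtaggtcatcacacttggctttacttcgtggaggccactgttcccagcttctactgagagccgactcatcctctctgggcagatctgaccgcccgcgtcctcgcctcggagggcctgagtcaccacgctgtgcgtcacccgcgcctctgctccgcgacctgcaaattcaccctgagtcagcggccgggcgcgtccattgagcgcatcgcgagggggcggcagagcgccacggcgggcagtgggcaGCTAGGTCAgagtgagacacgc
Pgd: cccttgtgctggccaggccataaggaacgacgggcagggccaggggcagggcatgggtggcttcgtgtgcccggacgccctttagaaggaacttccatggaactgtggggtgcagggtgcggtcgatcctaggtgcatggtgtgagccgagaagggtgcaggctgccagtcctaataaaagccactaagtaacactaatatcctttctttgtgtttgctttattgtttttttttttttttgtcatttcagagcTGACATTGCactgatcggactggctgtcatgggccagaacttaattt
Mt1: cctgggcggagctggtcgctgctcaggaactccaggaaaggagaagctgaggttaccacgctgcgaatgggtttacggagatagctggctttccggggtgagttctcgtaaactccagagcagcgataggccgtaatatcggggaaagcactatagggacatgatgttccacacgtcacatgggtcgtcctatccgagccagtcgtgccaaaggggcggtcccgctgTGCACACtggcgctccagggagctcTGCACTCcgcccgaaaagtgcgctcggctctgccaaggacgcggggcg
Mt2: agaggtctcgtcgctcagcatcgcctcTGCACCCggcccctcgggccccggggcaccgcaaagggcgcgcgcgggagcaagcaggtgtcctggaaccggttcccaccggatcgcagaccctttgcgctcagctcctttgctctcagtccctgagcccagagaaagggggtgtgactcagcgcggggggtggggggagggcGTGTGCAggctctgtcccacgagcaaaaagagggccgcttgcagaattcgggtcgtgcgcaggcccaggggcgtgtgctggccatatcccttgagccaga

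Plasma proteins of the acute phase response, which hepatocytes secrete in inflammation, moved in both directions. Of 21 tested genes, which include Mt1 and Mt2, 9 rose and 1 fell, with a median log2 fold change of 1.10. Calls numbered 7 higher without Cont 2, 5 without OA 2 and 6 without OA 3. Lcn2, an iron siderophore binding protein, was called without each library in turn, with a log2 fold change of 3.82 ± 0.52. Cd14, a receptor for bacterial lipopolysaccharide, was at 58.2, 144 and 94.1 CPM in OA livers, against 4.99, 16 and 5.01 CPM in Cont livers. OA livers stood at least 3-fold above the highest Cont liver, with a log2 fold change of 3.52 ± 0.61 SE (edgeR, adjusted p = 0.00682). Hp, which encodes the hemoglobin scavenger haptoglobin, had the highest mean level in OA livers outside mitochondrial RNA, at 9384, 9717 and 9998 CPM in OA livers, against 2897, 2319.9 and 2915 CPM in Cont livers. It took 3.27%, 3.11% and 3.06% of those counts in OA livers, against 0.634%, 0.769% and 0.884% in Cont livers. Its log2 fold change of 1.84 ± 0.47 SE (edgeR, adjusted p = 0.0397) passed in none of the 9 fits without 1 library, with adjusted p up to 0.157. Apcs, the amyloid P component, and Orm1, an orosomucoid, had log2 fold changes of 1.95 ± 0.37 and 1.74 ± 0.38, and Orm1 lost its call without Cont 1, OA 2 or OA 3. Crp, whose product is a weak acute phase protein in mice, went the other way, at 15.3, 27.6 and 29.9 CPM in OA livers, against 212, 63.2 and 59.3 CPM in Cont livers, a log2 fold change of −2.20 ± 0.49 SE (edgeR, adjusted p = 0.0233). Without Cont 1 it was −1.31, and the call was lost without Cont 1, OA 1, OA 2 or OA 3.

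Genes of tissue macrophages were higher in OA livers. Of 13 tested Kupffer cell markers, 9 were called higher and 12 lay above every Cont liver, against 2.4% and 18.5% of all tested genes, with a median log2 fold change of 1.76. The 3 chains of complement C1q, a product of tissue macrophages, were all higher. C1qa was at 120.1, 163 and 195 CPM in OA livers, against 7.83, 28.5 and 26.0 CPM in Cont livers, with Cont 1 the lowest of all livers and OA 3 the highest. Its log2 fold change was 2.94 ± 0.46 SE (edgeR, adjusted p = 0.00425), beside 2.39 ± 0.38 for C1qb and 2.22 ± 0.35 for C1qc. Cd163, the scavenger receptor for hemoglobin bound to haptoglobin, was at 33.9, 27.3 and 41.0 CPM in OA livers, against 3.96, 8.24 and 4.91 CPM in Cont livers, with a log2 fold change of 2.59 ± 0.36 SE (edgeR, adjusted p = 0.00218). Clec4f and Timd4, receptors that mark resident Kupffer cells, did not pass the test. Clec4f was at 234, 181 and 246 CPM in OA livers, against 56.5, 128 and 176 CPM in Cont livers, where Cont 3 came near OA 2, and Timd4 at 6.54, 6.10 and 5.76 CPM in OA livers, against 3.11, 4.58 and 2.28 CPM in Cont livers. Their log2 fold changes of 0.87 ± 0.38 and 0.90 ± 0.42 missed it (adjusted p = 0.203 and 0.23 from edgeR). Summed over the list, levels were 925, 1066 and 1266 CPM in OA livers, against 215, 403 and 428 CPM in Cont livers. Called members numbered 7 without Cont 2, 4 without OA 2, 5 without OA 3 and 2 without Cont 1 and Cont 2 together.

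Markers of monocytes and recruited macrophages were higher too, with 12 of 20 called, against 2.4% of all tested genes, and a median of 1.92. Trem2, a lipid receptor of macrophages in injured tissue, was at 22.6, 26.2 and 32.8 CPM in OA livers, against 1.30, 5.00 and 3.51 CPM in Cont livers, with a log2 fold change of 3.07 ± 0.49 SE (edgeR, adjusted p = 0.00453). Gpnmb, a glycoprotein of the same macrophages, was at 16.7, 34.5 and 59.4 CPM in OA livers, against 4.11, 6.22 and 6.38 CPM in Cont livers. OA 3 was the highest liver and OA 1 the lowest OA liver in this gene, and its log2 fold change was 2.73 ± 0.47 SE (edgeR, adjusted p = 0.00662). Ctss, the lysosomal protease cathepsin S, was at 37.3, 63.1 and 95.2 CPM in OA livers, against 13.5, 16.8 and 13.9 CPM in Cont livers, with a log2 fold change of 2.15 ± 0.35 SE (edgeR, adjusted p = 0.00476). Summed levels of the list were 801, 1184 and 1506 CPM in OA livers, against 267, 383 and 333 CPM in Cont livers. In the same direction, 10 of 19 genes of the phagocyte NADPH oxidase and of Fc receptors were higher, and 17 lay above every Cont liver, against 2.4% and 18.5% of all tested genes. Cyba, the membrane subunit p22phox of the oxidase, was at 34.0, 50.3 and 44.4 CPM in OA livers, against 2.60, 10.9 and 9.73 CPM in Cont livers, with a log2 fold change of 2.47 ± 0.45 SE (edgeR, adjusted p = 0.00841). Tyrobp, an adaptor through which Trem2 and activating Fc receptors signal, had a log2 fold change of 2.15 ± 0.34 SE (edgeR, adjusted p = 0.00457), and Fcgr4, an activating Fc receptor, 2.40 ± 0.40 SE (edgeR, adjusted p = 0.00566). Called members of the monocyte list numbered 9 without Cont 2, 6 without OA 2 and 5 without OA 3, and those of the oxidase list 7, 4 and 6. Without Cont 1 and Cont 2 together they were 2 and 1.

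Other cell types gave few calls. Of 15 neutrophil markers edgeR called 1, with a median of 2.31 over the list, 11 at an unadjusted p under 0.05 and 7 called by DESeq2. In all OA livers 11 lay above every Cont liver, against 18.5% of all tested genes. Of the 20 genes of that list, 5 had no count in any Cont liver and 1 none in any OA liver. Over all tested genes these numbers were 406 and 68, and Cont libraries held fewer counts outside mitochondrial RNA and its copies. Most of the list's summed level in the plot of marker sums came from Lrg1, which hepatocytes also make. Lrg1 was at 690.2, 1080.1 and 937 CPM in OA livers, against 473, 344 and 378 CPM in Cont livers. The called gene was Retnlg, a resistin-like protein of mouse neutrophils, at 2.27, 12.5 and 3.37 CPM in OA livers, against 0, 0.366 and 0.399 CPM in Cont livers. OA 2 was the highest liver, and the call was lost without OA 2, OA 3, Cont 2 or ZnPP+OA 1. The granule protein gene S100a8 was at 4.31, 14.6 and 3.24 CPM in OA livers, against 0.726, 5.13 and 1.23 CPM in Cont livers, where Cont 2 lay above 2 of the OA livers. Of 16 sinusoidal endothelial markers edgeR called 0 in either direction, with a median of −0.03 whose sign against all genes turned with the scaling, 2 at an unadjusted p under 0.05 and 1 called by DESeq2. Of 10 genes of MHC class II, which present antigen, H2-Eb1 was lower, at 8.11, 5.16 and 7.14 CPM in OA livers, against 20.9, 20.1 and 22.7 CPM in Cont livers. Its OA livers lay below every Cont liver by a log2 fold change of −1.64 ± 0.32 SE (edgeR, adjusted p = 0.012), and the call was lost without OA 2 or OA 3. Lymphocyte markers had low sums, of 3.89, 3.29 and 2.03 CPM in OA against 9.13, 29.5 and 18.3 CPM in Cont livers over 18 T and NK cell genes, and of 3.57, 3.07 and 5.63 CPM in OA against 9.13, 22.5 and 17.8 CPM in Cont livers over 14 B cell genes. Of the 15 and 13 that were tested, 1 and 2 were called lower, 0 and 1 without Cont 2, and 0 of either without OA 2 or without OA 3. The 7 hepatocyte markers summed to 11501, 13038 and 19254 CPM in OA livers, against 55290.0, 23283 and 16639 CPM in Cont livers, so Cont 3 lay within the range of the OA livers. Of them, 1 was called, Ttr, which encodes the thyroid hormone carrier transthyretin, at 366, 268 and 516 CPM in OA livers, against 2166, 1248 and 659 CPM in Cont livers. That call was lost in 8 of the 9 fits without 1 library. Log2 fold changes of the 7 markers ran from −1.82 to −0.36, and DESeq2 called 5 lower. Most of their summed level came from Alb and Apoa1, which edgeR did not call, with log2 fold changes of −1.225 ± 0.694 and −0.751 ± 0.458. Markers of adjacent tissue and blood summed to 159, 140.2 and 204 CPM in OA livers, against 196.5, 601 and 203 CPM in Cont livers, and 1 of the 12 tested, Alas2, was lower. How far a change in the proportions of cells bears on the other results was not tested.

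**Figure D3:**
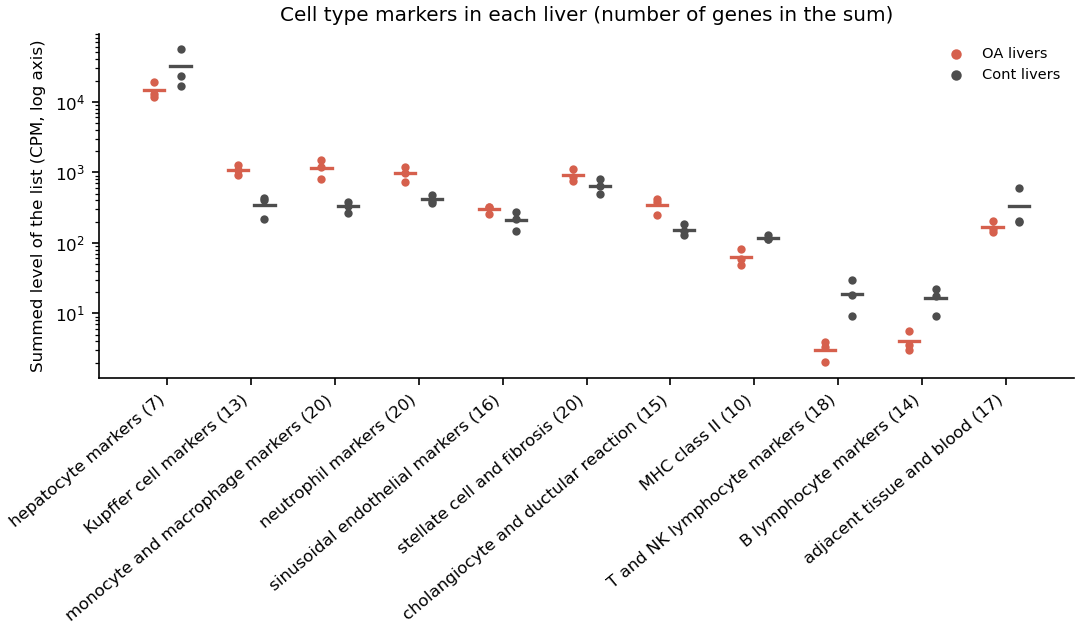
Summed level (CPM, log axis) of each list of cell type markers in each liver, with OA livers to the left of Cont livers, 1 point a liver and a bar at the group mean. Kupffer cell sums lay between 925 and 1266 CPM in OA and between 215 and 428 CPM in Cont livers, while hepatocyte sums overlapped.

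Chemokine genes were called higher for 4 of 32, against 2.4% of all tested genes, with a median of 1.38. Ccl2, which attracts monocytes, was at 18.2, 14 and 9.08 CPM in OA livers, against 0.635, 2.14 and 0.628 CPM in Cont livers, with OA 1 the highest liver. Ccl9, another ligand of monocyte receptors, was at 53.5, 126 and 80.0 CPM in OA livers, against 15.8, 12.0 and 9.86 CPM in Cont livers, and OA 2 was the highest liver there. Their log2 fold changes were 3.67 ± 0.61 and 2.78 ± 0.40, and both were called without each library in turn. Cxcl1, which attracts neutrophils, was at 32.1, 41.4 and 26.6 CPM in OA livers, against 2.51, 12.0 and 4.41 CPM in Cont livers, with a log2 fold change of 2.43 ± 0.50 SE (edgeR, adjusted p = 0.0166), a call lost without OA 2. Ccl6 was the other higher gene and Ccl27a the lower one, with log2 fold changes of 1.76 ± 0.44 and −2.40 ± 0.53. Ccl6 lost its call in 6 of the 9 fits without 1 library, and Ccl27a without Cont 1, OA 2 or OA 3. Among 28 genes of interleukin 1, TNF and the inflammasome, 2 rose and 1 fell, with 4 higher without Cont 2, 0 without OA 2 and 8 by DESeq2. Il1rn, the natural antagonist of the interleukin 1 receptor, was at 9.80, 23.3 and 11.5 CPM in OA livers, against 0.484, 2.44 and 1.87 CPM in Cont livers, with a log2 fold change of 3.24 ± 0.58 SE (edgeR, adjusted p = 0.00849), while Il1rap, the accessory chain of that receptor, fell to 5.17, 7.51 and 7.76 CPM in OA livers, against 54.5, 25.4 and 21.5 CPM in Cont livers. The log2 fold change of Il1rap was −2.31 ± 0.39 SE (edgeR, adjusted p = 0.00566). Tnfaip3, an inhibitor of NF-kB, was higher by 3.31 ± 0.72 on the log2 scale. The call was lost without Cont 1, Cont 3 or OA 2, and that of Il1rn without OA 2.

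Cytoskeletal genes formed the list with the most calls upward of the 67 lists. The Kupffer cell list, the monocyte list and that of the phagocyte oxidase and Fc receptors had larger shares of members called higher. Of 28 tested genes of actin, tubulin, keratin and annexin families, 14 were higher, against 2.4% of all tested genes, with a median of 1.39. Without Cont 2, 15 were called. The number was 6 without OA 2, 6 without OA 3 and 1 without Cont 1 and Cont 2 together. Krt8, a keratin of hepatocytes and bile duct cells, was at 491, 619.7 and 816 CPM in OA livers, against 78.9, 101 and 73.0 CPM in Cont livers. Every OA liver was more than 4-fold above the highest Cont liver, with a log2 fold change of 2.93 ± 0.43 SE (edgeR, adjusted p = 0.00265). The tubulin gene Tubb2a was at 126, 130.1 and 150.5 CPM in OA livers, against 16.6, 20.1 and 21.9 CPM in Cont livers, with narrow ranges in both groups and a log2 fold change of 2.80 ± 0.38 SE (edgeR, adjusted p = 0.00192). Ly6d, a surface protein of squamous epithelia, was at 91.6, 220.2 and 288 CPM in OA livers, against 13.2, 24.6 and 13.3 CPM in Cont livers, with OA 3 the highest, and a log2 fold change of 3.56 ± 0.53 SE (edgeR, adjusted p = 0.00303). Sprr1a, a protein of the cornified envelope, was at 43.4, 21.9 and 62.5 CPM in OA livers, against 4.35, 5.86 and 2.11 CPM in Cont livers, with a log2 fold change of 3.39 ± 0.47 SE (edgeR, adjusted p = 0.00216). Afp, the fetal counterpart of albumin, was at 30.2, 159.9 and 156 CPM in OA livers, against 9.10, 13.2 and 3.87 CPM in Cont livers. OA 1 was well below the other OA livers, yet above every Cont liver, and the log2 fold change was 3.73 ± 0.67 SE (edgeR, adjusted p = 0.00831).

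Of 22 transcription factors of the AP-1, Egr, Klf and Myc families, 8 were higher and 20 lay above every Cont liver, against 2.4% and 18.5% of all tested genes. The median was 1.61. Cells switch on some of these factors within minutes of a stimulus. Egr1 was at 16.8, 30.7 and 20.8 CPM in OA livers, against 4.26, 3.48 and 2.21 CPM in Cont livers, with a log2 fold change of 2.79 ± 0.39 SE (edgeR, adjusted p = 0.00218). Atf3, a stress factor, was at 21.4, 8.94 and 17.1 CPM in OA livers, against 1.69, 2.14 and 1.9 CPM in Cont livers, lowest of the OA livers in OA 2, with a log2 fold change of 3.05 ± 0.58 SE (edgeR, adjusted p = 0.0112). Fos, a partner in the AP-1 dimer, rose by 2.58 ± 0.52 on the log2 scale and lost its call without OA 2 or OA 3. Called members of the list numbered 7 without Cont 2, 2 without OA 2 and 2 without OA 3. Gdf15, a hormone released by stressed cells, was at 119, 36.4 and 36.3 CPM in OA livers, against 2.99, 7.63 and 7.32 CPM in Cont livers, with OA 1 more than 3-fold above the other OA livers and a log2 fold change of 3.42 ± 0.58 SE (edgeR, adjusted p = 0.00609). Of 23 genes of the integrated stress response it was the 1 called, with 3 called without Cont 2, 5 by DESeq2, and 8 higher and 1 lower at an unadjusted p under 0.05. Of 19 endoplasmic reticulum chaperones edgeR called 0, with a median of −0.11, 1 at an unadjusted p under 0.05 and 0 called by DESeq2. Of 16 heat shock genes edgeR also called 0, with 4 at an unadjusted p under 0.05 and 2 called lower by DESeq2. Of 21 p53 targets 3 were higher, 1 without Cont 2 and 0 without OA 2 or OA 3. Of 31 apoptosis genes 5 were higher, 2 without Cont 2 and 1 without OA 2 or OA 3. Tnfrsf12a, the receptor of the cytokine TWEAK, was the apoptosis gene called without each library in turn, with a log2 fold change of 2.40 ± 0.44 SE (edgeR, adjusted p = 0.00891).

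Lysosomal genes were higher for 11 of 45, with a median of 0.83, and for 0 of 45 without Cont 1 and Cont 2 together. Without OA 2 or OA 3, 4 were called each time. Lgmn, the protease legumain, was at 79.8, 161 and 191 CPM in OA livers, against 20.5, 31.4 and 28.4 CPM in Cont livers, with a log2 fold change of 2.43 ± 0.38 SE (edgeR, adjusted p = 0.0041). Of 21 proteases of the matrix and the plasminogen system and their inhibitors, 6 were higher, with 2 called without OA 2 and 1 without OA 3. Plat, the tissue plasminogen activator, was at 8.33, 17.9 and 23.1 CPM in OA livers, against 1.51, 1.83 and 0.799 CPM in Cont livers, with a log2 fold change of 3.60 ± 0.66 SE (edgeR, adjusted p = 0.00914). It was above all Cont livers in all OA livers, but lost its call without OA 3. Of 20 genes of stellate cells and fibrosis, Col4a1, Col4a2, Loxl2 and Lum were higher, and 0 of 20 were called without OA 2 or without OA 3. Col4a2, a chain of basement membrane collagen, was at 23.8, 32.3 and 32.6 CPM in OA livers, against 10, 13.2 and 8.26 CPM in Cont livers, a log2 fold change of 1.5 ± 0.29 SE (edgeR, adjusted p = 0.0126). Among 15 genes of bile duct cells, Spp1 and Cd24a rose and the factor gene Onecut2 fell. Spp1, which encodes osteopontin and is also made by macrophages, was at 139, 254 and 269 CPM in OA livers, against 33.0, 49.4 and 84.5 CPM in Cont livers, with a log2 fold change of 1.99 ± 0.40 SE (edgeR, adjusted p = 0.0146). Cd24a was at 23.1, 46.9 and 52.4 CPM in OA livers, against 7.47, 10.8 and 3.52 CPM in Cont livers, with a log2 fold change of 2.50 ± 0.50 SE (edgeR, adjusted p = 0.014). Neither was called without OA 2 or OA 3, nor Spp1 without Cont 2. Onecut2 turned positive, to 0.27, with library totals alone.

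Transporters that take bile acids and organic anions up from blood had less RNA in OA livers. Of 9 tested hepatic uptake genes, 4 fell, against 2.8% of all tested genes, with a median log2 fold change of −1.70, and 4 were called without OA 2 and without OA 3. Slc10a1, the sodium-dependent bile acid carrier Ntcp, was at 5.49, 5.22 and 10.8 CPM in OA livers, against 145, 51.1 and 63.1 CPM in Cont livers. The highest OA liver was several times below the lowest Cont liver, with a log2 fold change of −3.59 ± 0.50 SE (edgeR, adjusted p = 0.00214). Slco1b2, which carries bilirubin conjugates and bile acids, was at 28.8, 30.9 and 32.6 CPM in OA livers, against 188, 131 and 174 CPM in Cont livers, with a log2 fold change of −2.42 ± 0.32 SE (edgeR, adjusted p = 0.00168). Slc22a7, the organic anion transporter Oat2, was at 0.239, 0.103 and 0.0557 CPM in OA livers, against 12.1, 13.4 and 1.91 CPM in Cont livers, with a log2 fold change of −6.13 ± 1.05 SE (edgeR, adjusted p = 0.00639). Cont 3 was the Cont liver nearest to OA. Slco1a1, another organic anion carrier, fell by 3.22 on the log2 scale. On the export side, Abcb11, the canalicular bile salt pump, was at 46.9, 32.9 and 44.5 CPM in OA livers, against 95.4, 110.5 and 81.8 CPM in Cont livers, a log2 fold change of −1.21 ± 0.28 SE (edgeR, adjusted p = 0.027). It lost its call in 6 of the 9 fits without 1 library, and with library totals alone its sign turned to 0.28. Slc51a, a subunit of the organic solute exporter of the blood side, was at 3.01, 4.79 and 2.99 CPM in OA livers, against 0, 0 and 0.157 CPM in Cont livers. Cont 1 and Cont 2 were at 0, so no fold against them is given, and the call (adjusted p = 0.0473 from edgeR) was lost in 7 of the 9 fits without 1 library. Abcc2, Abcc3 and Abcc4, exporters of conjugates, had log2 fold changes of 0.29 ± 0.42, 0.42 ± 0.54 and 1.9 ± 0.66, and with all libraries none of them passed (adjusted p = 0.749, 0.704 and 0.117 from edgeR). Abcc3 was called in 1 of the 9 fits without 1 library, the one without Cont 3, its highest liver. There the log2 fold change was 1.64 (adjusted p = 0.0169 from edgeR), and in the others adjusted p reached 0.957.

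Many carboxylesterases and Ugt enzymes were lower. Of 14 tested carboxylesterases, which hydrolyse esters of drugs and lipids, 9 fell, with a median of −2.68, and 8 were called without OA 2, without OA 3 and without Cont 1 and Cont 2 together. Ces3a was at 26.6, 12.7 and 9.22 CPM in OA livers, against 1114, 1192 and 887 CPM in Cont livers. That was a log2 fold change of −6.04 ± 0.60 SE (edgeR, adjusted p = 0.000472), with every Cont liver over 30-fold above every OA liver. Ces2a, Ces1b and Ces1d had log2 fold changes of −4.17 ± 0.43, −4.49 ± 0.44 and −3.65 ± 0.44, and were also called without each library in turn. These genes lie in clusters of near copies, and reads shared between copies may have been split. Of 16 UDP-glycosyltransferases of the Ugt families, 7 fell, with a median of −2.42, and 8 without Cont 2, 5 without OA 2 and 6 without OA 3. Ugt2b1, which conjugates steroids and drugs, was at 4.52, 5.38 and 6.35 CPM in OA livers, against 116, 62.7 and 26.7 CPM in Cont livers, with a log2 fold change of −3.66 ± 0.46 SE (edgeR, adjusted p = 0.00126). Ugt2b38 and Ugt3a2 had log2 fold changes of −4.0 ± 0.45 and −4.86 ± 0.60. Ugt1a1, the enzyme that conjugates bilirubin, was at 6.50, 37.4 and 51.3 CPM in OA livers, against 247, 101 and 125 CPM in Cont livers. Its OA livers lay below every Cont liver, but the log2 fold change of −2.31 ± 0.67 did not pass (SE, edgeR adjusted p = 0.0662). Of 24 steroid dehydrogenases 7 fell, 4 without Cont 2, 2 without OA 2 and 3 without OA 3. Hsd11b1, which regenerates active glucocorticoid, was at 14.5, 12.0 and 19.9 CPM in OA livers, against 251, 108 and 44.4 CPM in Cont livers, with a log2 fold change of −3.12 ± 0.52 SE (edgeR, adjusted p = 0.00566). Of 9 sulfotransferases of the Sult family 2 were lower and 1 higher, and of 22 glutathione transferases of the Gst family 2 were higher and 0 lower, with medians of −0.73 and 0.52. At an unadjusted p under 0.05, 9 Gst genes were higher and 3 lower, and DESeq2 called 4 and 2. Of the Gst genes 1 was called higher without OA 2, and 1 without OA 3. The higher Sult gene, Sult1e1, the estrogen sulfotransferase, was at 5.28, 14 and 10.3 CPM in OA livers, against 0.484, 0 and 0.428 CPM in Cont livers, with a log2 fold change of 4.89 ± 1.08 SE (edgeR, adjusted p = 0.0215), lost without OA 2 or OA 3. Upp2, a uridine phosphorylase of the liver, was at 2.12, 1.51 and 0.743 CPM in OA livers, against 75.3, 72.1 and 108 CPM in Cont livers, with a log2 fold change of −5.87 ± 0.68 SE (edgeR, adjusted p = 0.000889), among the largest falls of genes that belong to no list.

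The promoters of some lower genes held a motif known from liver genes with a daily rhythm. The letters TTATGNAA, the D-box bound by Dbp and its relatives, stood on either strand in 9.67% of the windows of genes called lower, against 2.19% of genes not called and 3.38% of all windows. Part of this came from near copies, since 10 major urinary protein genes with a called fall held it. Of genes with a window, it was in 4 of 11 carboxylesterases, 2 of 14 Ugt genes, 1 of 7 uptake transporters and 2 of 15 clock genes. Of the called ones, it was in 4 of 6, 1 of 6, 1 of 3 and 0 of 2. Dbp itself was at 4.49, 2.28 and 3.30 CPM in OA livers, against 8.68, 45.9 and 82.8 CPM in Cont livers, where Cont 1 was near the OA livers and Cont 3 the highest, with a log2 fold change of −3.77 ± 0.75 SE (edgeR, adjusted p = 0.0135). That call was lost without OA 2 or OA 3. Nr1d1, a repressor of the clock, fell by 2.11 on the log2 scale, and both were the called members of 18 clock genes. The methods place all treatments in the light phase, and the hour at which tissue was taken was not stated. The letters TTGCNNAA of C/EBP factors occurred in 19.1% of windows of lower, 12.5% of higher and 8.96% of genes not called. For the letters CAAAGTCCA of Hnf4a, a rarer motif, the shares were 2.8%, 0.946% and 0.475%. These shares were not tested. The windows of Slc10a1 (chr12:80968030-80968329, − strand) and Ugt2b1 (chr5:86926454-86926753, − strand) are shown with TTATGNAA, or its reverse complement, in capitals, and the match in Slc10a1 also fits TTGCNNAA. Slc10a1 has 2 windows, and the first with a match is shown.
Slc10a1: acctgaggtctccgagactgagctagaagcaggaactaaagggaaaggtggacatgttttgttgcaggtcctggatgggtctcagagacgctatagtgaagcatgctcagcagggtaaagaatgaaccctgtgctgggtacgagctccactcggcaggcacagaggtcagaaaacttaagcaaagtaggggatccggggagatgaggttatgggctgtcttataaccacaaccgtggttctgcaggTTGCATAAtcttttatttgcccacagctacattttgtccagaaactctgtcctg
Ugt2b1: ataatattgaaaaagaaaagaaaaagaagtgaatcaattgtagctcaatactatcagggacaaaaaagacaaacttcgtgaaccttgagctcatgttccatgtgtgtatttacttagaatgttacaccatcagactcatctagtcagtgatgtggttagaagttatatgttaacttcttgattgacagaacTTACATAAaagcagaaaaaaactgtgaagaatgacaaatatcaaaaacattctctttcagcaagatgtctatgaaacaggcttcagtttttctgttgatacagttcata

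Proteins that hepatocytes secrete into plasma fell more often than they rose. Of 40 genes of complement and coagulation, 14 fell and 24 lay below every Cont liver in all OA livers, against 2.8% and 10.6% of all tested genes, and the median was −1.0. The number was 6 without OA 2, 8 without OA 3 and 4 without Cont 1 and Cont 2 together. Klkb1, the precursor of plasma kallikrein, was at 14.7, 13.8 and 11.8 CPM in OA livers, against 93.9, 65.6 and 88.3 CPM in Cont livers, with a log2 fold change of −2.62 ± 0.30 SE (edgeR, adjusted p = 0.000794). C8b, a subunit of the membrane attack complex, was at 7.99, 7.68 and 12.0 CPM in OA livers, against 79.8, 75.4 and 53.7 CPM in Cont livers, with a log2 fold change of −2.92 ± 0.35 SE (edgeR, adjusted p = 0.00103). Both groups were narrow in these genes. F13b and C8g, a carrier subunit of factor XIII and another subunit of the same complex, fell by 2.36 and 2.33 on the log2 scale. Among 17 genes of the Serpina family 4 fell and 2 rose. Serpina1e, a copy of the elastase inhibitor alpha-1-antitrypsin, was at 93.7, 37.9 and 73.3 CPM in OA livers, against 1612, 1813 and 645 CPM in Cont livers, with a log2 fold change of −4.31 ± 0.53 SE (edgeR, adjusted p = 0.0011). Its near copies Serpina1c and Serpina1d, between which reads may be split, had log2 fold changes of −2.46 ± 0.55 and −3.90 ± 0.62, and Serpina1c lost its call without Cont 1, OA 1, OA 2 or OA 3. Serpina6, the corticosteroid carrier of plasma, had a log2 fold change of −6.79 ± 0.77, while Serpina7, the carrier of thyroid hormone, was at 85.0, 73.1 and 128 CPM in OA livers, against 7.77, 19.7 and 7.36 CPM in Cont livers, a log2 fold change of 3.05 ± 0.60 SE (edgeR, adjusted p = 0.0135). The rise of Serpina7 was lost without OA 3. Mug1, a protease inhibitor of the alpha-2-macroglobulin family, was at 348, 125 and 102 CPM in OA livers, against 5179, 3094 and 2705 CPM in Cont livers, with a log2 fold change of −4.26 ± 0.62 SE (edgeR, adjusted p = 0.0026). Of 21 apolipoproteins and lipases, 5 fell, Lipc, Lcat and Apoa2 among them, and Apoa4 rose, and 1 was called without OA 2 and 1 without OA 3. Lipc, the hepatic lipase, was at 13.1, 10.6 and 11.8 CPM in OA livers, against 118, 48.3 and 53.9 CPM in Cont livers, with a log2 fold change of −2.63 ± 0.37 SE (edgeR, adjusted p = 0.00214). Apoa4 was at 2274, 3910.2 and 4356 CPM in OA livers, against 478, 529 and 1278 CPM in Cont livers, with Cont 3 highest among Cont livers and a log2 fold change of 2.21 ± 0.54 SE (edgeR, adjusted p = 0.0334). The call of Apoa4 was lost in 6 of the 9 fits without 1 library.

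Both ends of the liver lobule were touched. Hepatocytes near the central vein normally make glutamine and carry P450 enzymes, while those near the portal vein run the urea cycle. Of 19 pericentral genes 10 fell, with a median of −2.25, and of 19 periportal genes 7 fell and 1 rose, with −1.19. Without OA 2 the numbers lower were 7 and 5, and without OA 3 they were 7 and 6. Whether the ends of the lobule differed was not tested. Glul, the pericentral glutamine synthetase, was at 39.5, 44.0 and 62.7 CPM in OA livers, against 424, 217 and 192 CPM in Cont livers, with a log2 fold change of −2.51 ± 0.38 SE (edgeR, adjusted p = 0.00322). Cyp2e1, a pericentral P450, was at 41.6, 43.9 and 87.4 CPM in OA livers, against 2209.6, 358 and 1120.3 CPM in Cont livers, with a wide spread in Cont livers and a log2 fold change of −4.41 ± 0.67 SE (edgeR, adjusted p = 0.00325). On the portal side, Pigr, the receptor that carries IgA into bile, was at 45.5, 15.9 and 15.2 CPM in OA livers, against 663, 269 and 217 CPM in Cont livers, with a log2 fold change of −3.91 ± 0.58 SE (edgeR, adjusted p = 0.00303). Of 14 genes of the urea cycle and nitrogen handling 4 fell, namely Asl, Otc, Glul and Rhbg. Asl, argininosuccinate lyase, was at 123, 92.1 and 77.9 CPM in OA livers, against 464, 414 and 628 CPM in Cont livers, with a log2 fold change of −2.36 ± 0.39 SE (edgeR, adjusted p = 0.00527). Of 28 enzymes of amino acid breakdown 10 fell, with a median of −1.36, 15 without Cont 2 and 5 without OA 2 or OA 3. Hpd, an enzyme of tyrosine breakdown, was at 76.0, 54.8 and 44.9 CPM in OA livers, against 2564, 1059 and 1122 CPM in Cont livers. The lowest Cont liver was over 10-fold above the highest OA liver, with a log2 fold change of −4.76 ± 0.52 SE (edgeR, adjusted p = 0.000683). Prodh2, which breaks down hydroxyproline, was at 64.8, 17.5 and 25.8 CPM in OA livers, against 343, 422 and 414 CPM in Cont livers, with a log2 fold change of −3.45 ± 0.50 SE (edgeR, adjusted p = 0.00265).

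**Figure D4:**
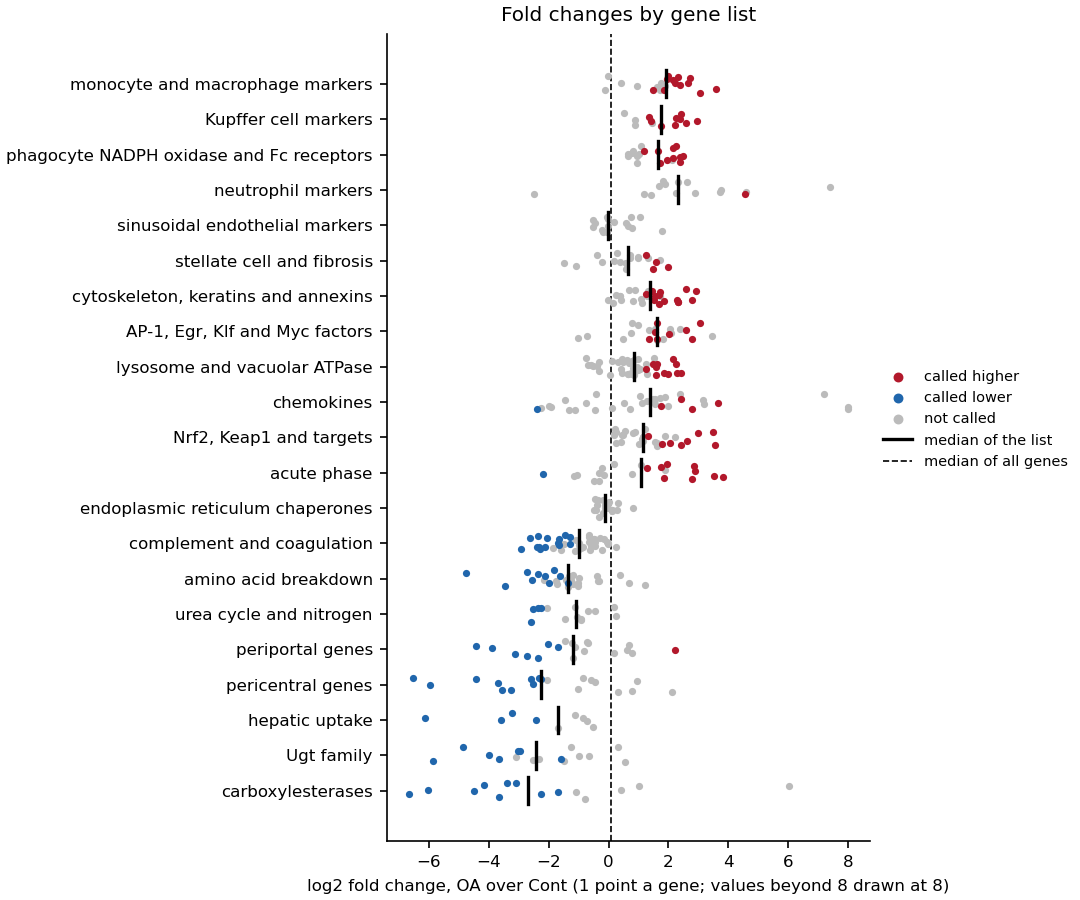
Log2 fold changes of OA over Cont livers for the members of 21 gene lists, 1 point a gene, coloured where the gene was called, with the list median as a bar and the median of all genes as a line. Macrophage, oxidant defence and cytoskeletal lists lie to the right of the line, with medians of 1.16 to 1.92, and uptake, Ugt and carboxylesterase lists to its left, with medians of −1.70 to −2.68.

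Some genes of the growth hormone axis were lower. Of 14 genes of that axis and of Stat5 signalling 4 fell, with a median of −1.12 and 2 called without OA 2 or without OA 3. Ghr, the growth hormone receptor, was at 12.7, 14.5 and 15.2 CPM in OA livers, against 123, 78.2 and 56.5 CPM in Cont livers, with a log2 fold change of −2.60 ± 0.36 SE (edgeR, adjusted p = 0.00202). Igfals, the subunit that keeps Igf1 in plasma, had a log2 fold change of −2.88 ± 0.49 SE (edgeR, adjusted p = 0.00614). Prlr, the prolactin receptor, and Bcl6, a transcriptional repressor of lipid genes in liver, had log2 fold changes of −2.08 ± 0.53 and −1.55 ± 0.39, but each lost its call in at least 6 of the 9 fits without 1 library. Prlr was at −1.28 without Cont 1, and Bcl6 turned to 0.09 with library totals alone. Of 21 nuclear receptors and hepatocyte factors 2 were lower, and 0 without OA 2 or without OA 3. Nr1i3, the xenobiotic sensor CAR, was at 166, 63.5 and 65.6 CPM in OA livers, against 418, 229.5 and 464 CPM in Cont livers, with a log2 fold change of −1.91 ± 0.44 SE (edgeR, adjusted p = 0.0255), and Klb, the co-receptor for the hormone Fgf15, had a log2 fold change of −2.49 ± 0.53 SE (edgeR, adjusted p = 0.0184).

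Genes of fat storage were among the higher genes and several of fat synthesis among the lower. Lpl, lipoprotein lipase, which is low in the normal adult liver, was at 56.4, 65.9 and 95.1 CPM in OA livers, against 16, 19.8 and 16 CPM in Cont livers, with a log2 fold change of 2.07 ± 0.30 SE (edgeR, adjusted p = 0.00285). The lipid droplet coat gene Plin2 was at 367, 577 and 677 CPM in OA livers, against 162, 92.7 and 184 CPM in Cont livers, with a log2 fold change of 1.89 ± 0.40 SE (edgeR, adjusted p = 0.0191), and lost its call without Cont 2, OA 2 or OA 3. In all, 5 of 23 genes of fat uptake and droplets rose and 3 fell, and 1 and 0 were called without OA 2 or OA 3. Scd1, the desaturase that makes oleate, was at 25.2, 31.4 and 11.3 CPM in OA livers, against 207, 479.6 and 52.2 CPM in Cont livers, highest in Cont 2, with a log2 fold change of −3.44 ± 0.66 SE (edgeR, adjusted p = 0.0116), a call lost without OA 3. Elovl3, an elongase with a daily rhythm in mouse liver, fell by 6.15 on the log2 scale. The fatty acid synthesis list had 4 lower and 1 higher of 24, with Elovl7 the higher one. Lower calls numbered 2 without Cont 2, 2 without OA 2 and 1 without OA 3, and Elovl7 was not called without OA 2 or OA 3. Of 26 genes of fatty acid oxidation, Acot2, a mitochondrial thioesterase, was the 1 called, at 18.2, 22.6 and 34.4 CPM in OA livers, against 3.96, 3.66 and 6.46 CPM in Cont livers, with a log2 fold change of 2.41 ± 0.43 SE (edgeR, adjusted p = 0.00849). Of 23 genes of cholesterol synthesis edgeR called 0, with a median of 0.56, 3 at an unadjusted p under 0.05 and 1 called higher by DESeq2, against 2 called higher without Cont 2. Among 23 genes of glucose and glycogen, G6pc, Khk and Slc2a2 were lower, 0 without OA 2, and the last 2 turned positive with library totals alone, to 0.22 and 0.07.

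Of 14 genes of heme breakdown and bilirubin, Blvra, Cd163, Gsta1 and Hp were higher and Slco1b2 lower, with a median log2 fold change of 1.02. Higher calls numbered 2 without Cont 2, OA 2 or OA 3 in turn. Of 9 genes of heme synthesis, Alas2 and Alad were lower, and of 19 of iron handling, Cp was higher and Hamp2 lower. Blvra, the reductase that turns biliverdin into bilirubin, was at 9.97, 9.65 and 12.3 CPM in OA livers, against 2.93, 2.26 and 4.61 CPM in Cont livers, with a log2 fold change of 1.69 ± 0.39 SE (edgeR, adjusted p = 0.026). The groups did not overlap, but the call was lost when any of the 6 compared libraries other than Cont 3 was left out. Alas2, the erythroid first enzyme of heme synthesis and a marker of red cell precursors, was at 1.84, 2.23 and 1.9 CPM in OA livers, against 24.7, 19.8 and 9.51 CPM in Cont livers. It had a log2 fold change of −3.18 ± 0.40 SE (edgeR, adjusted p = 0.00116) and was called without each library in turn, whereas Alad, the second enzyme of the pathway, had a log2 fold change of −1.07 ± 0.26 and turned to 0.38 with library totals alone. The call of Alad was lost in 8 of the 9 fits without 1 library. Hamp2, a hepcidin gene, was at 1.12, 0.615 and 0.404 CPM in OA livers, against 56.1, 2.93 and 3.18 CPM in Cont livers, with Cont 1 far above the rest and a log2 fold change of −4.87 ± 1.03 SE (edgeR, adjusted p = 0.0181). Without Cont 1 its log2 fold change was −2.09, and its call was lost without OA 2 or OA 3. Cp, the ferroxidase ceruloplasmin, had a log2 fold change of 1.29 ± 0.34 SE (edgeR, adjusted p = 0.047), a call lost whichever library was left out.

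Few nuclear genes of mitochondrial respiration were called. Of 79 nuclear subunits of oxidative phosphorylation, Cox7a2 was called higher, with a log2 fold change of 1.29 ± 0.32 SE (edgeR, adjusted p = 0.0353), and 0 subunits were called without Cont 2, OA 2 or OA 3. Of the 13 protein genes of mitochondrial DNA, 3 were lower, mt-Nd3, mt-Nd4l and mt-Atp8, and 0 without Cont 2. All 13 lay below every Cont liver in all OA livers, against 10.6% of all tested genes, with a median of −3.27. At an unadjusted p under 0.05 all 13 were lower, and DESeq2 called 7. mt-Nd3 was at 734, 357 and 221 CPM in OA livers, against 1594, 9070.4 and 1189 CPM in Cont livers, highest in Cont 2, whose share of mitochondrial RNA was 92.0%, and its log2 fold change of −3.18 ± 0.78 became −1.64 without Cont 2. Sirt3, the deacetylase of mitochondria, was at 16.2, 12.2 and 10.5 CPM in OA livers, against 34.6, 28.9 and 68.0 CPM in Cont livers, with a log2 fold change of −1.76 ± 0.35 SE (edgeR, adjusted p = 0.0146), lost without OA 2 or OA 3. Tfam, the factor that packages mitochondrial DNA, had a log2 fold change of −0.10 ± 0.42 and did not pass (SE, edgeR adjusted p = 0.92). Of 80 cytosolic ribosomal proteins 6 were higher, with a median of 0.72, 1 without Cont 2, 2 without OA 2 and 1 without OA 3. In all OA livers 51 of them lay above every Cont liver, against 18.5% of all tested genes, and 0 below. At an unadjusted p under 0.05, 41 were higher, and DESeq2 called 13 higher.

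Long noncoding RNA genes were called lower about as often as protein-coding genes, and called higher less often. Of 1927 long noncoding RNA genes 10 were higher and 47 lower, against 433 and 396 of 14661 protein-coding genes. Over all tested genes, 2.4% were higher and 2.8% lower. Processed pseudogenes, whose reads can come from their parent genes, had 9 higher and 24 lower of 1210. Tbx3os1, an antisense RNA beside the pericentral factor gene Tbx3, was at 0.781, 0.246 and 0.367 CPM in OA livers, against 31.3, 46.9 and 8.53 CPM in Cont livers, with a log2 fold change of −5.96 ± 0.78 SE (edgeR, adjusted p = 0.00169). Whether the counting used strand was not known, so reads of Tbx3 may be among them. Gm10680 was at 0.184, 20.0 and 128 CPM in OA livers and had no count in any Cont liver. No fold is given for it, and it spread widely among the OA livers.

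The remaining lists lost most of their calls when 1 of some livers was left out. Of 31 cell cycle genes Cdc20, Rrm1 and Ube2c were higher and Cdc25c lower, with a median of 1.36, and 0 were higher without OA 2 or OA 3. In that list 19 lay above every Cont liver, against 18.5% of all tested genes. At an unadjusted p under 0.05, 17 were higher and 1 lower, and DESeq2 called 10 and 1. Of 24 interferon response genes Oasl1 and Rsad2 were higher, and 0 of 24 without Cont 2 or without OA 2. Of 23 genes of activins, hepatokines and their inhibitors 3 rose, Gdf15, Inhbb and Fst, of which 1 was called without OA 2 and 1 without OA 3. Fst, which binds and inhibits activins, was at 4.96, 12.5 and 11.3 CPM in OA livers, against 2.27, 1.95 and 2.1 CPM in Cont livers, and all OA livers stood above the Cont livers, which lay close together, but its call was lost without Cont 2, OA 2 or OA 3. Of 15 methionine and one-carbon genes 4 were lower, Gnmt, Cth, Aldh1l1 and Mthfd1, against 2.8% of all tested genes, and 0 of them without OA 2 or OA 3. Gnmt, the methyltransferase that disposes of spare methyl groups, was at 40, 66.5 and 38 CPM in OA livers, against 416, 106 and 214 CPM in Cont livers, lower in all OA livers.

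**Figure D5:**
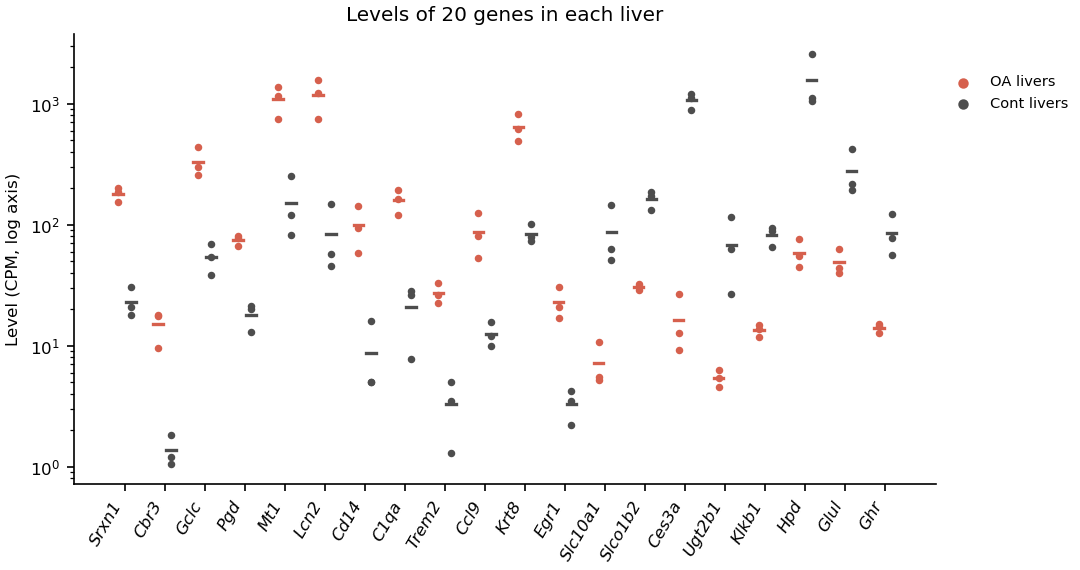
Level in CPM (log axis) of 20 genes, picked from those described above, in each of the 3 OA livers (left of each pair) and the 3 Cont livers (right), with a bar at each group mean. The OA and Cont points do not overlap in any of the 20, with the first 12 genes higher and the last 8 lower in OA livers.

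Across the comparison, 216 of the 258 genes singled out by rule were called, and 109 of them were also called without each of the 9 libraries in turn. The main parts of that rule asked for a call, often one with a small p, so these numbers describe the named genes and not all genes. Those 109 included Srxn1, Gclc, Mt1, Lcn2, C1qa, Trem2 and Krt8 among the higher genes, and Slc10a1, Slco1b2, Ces3a, Klkb1, Hpd, Glul and Ghr among the lower. Leaving out OA 2 kept 117 of the 216 calls and leaving out OA 3 kept 119, while without Cont 2 it was 160. Over all tested genes, 242 of the 984 calls were kept without OA 2, 261 without OA 3 and 558 without Cont 2.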

How the data were processed

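Whole liver RNA of 3 OA, 3 Cont and 3 ZnPP+OA mice was sequenced after selection for poly(A) tails, in stranded paired-end libraries. The deposited table gives raw counts per gene for each library and FPKM, counts scaled by gene length and depth, made by the authors. Per the submitters' notes on processing, the tools were HISAT2 2.2.1, cutadapt 1.9, edgeR, DESeq2 and StringTie 2.1.6 with the build mm10, and the role of each is not stated there, nor how reads shared between genes were counted. Positions in the table were not used, and FPKM entered no test.

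Genes were kept with filterByExpr (min.count 10, min.total.count 15), scaled by TMM and tested with quasi-likelihood F tests of edgeR 4.0.16 in R 4.3.3, two-sided, in 1 fit of all 9 libraries with 6 residual degrees of freedom. P-values were adjusted by Benjamini and Hochberg over 18895 genes, with a threshold of 0.05. The test was checked on simulated data. CPM are counts scaled to a TMM library size of 1000000. Replicates of a group differed by far more than counting noise.

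The 67 gene lists, the members and the named genes were chosen with earlier results of these data known. The rule for names took the 20 largest rises and falls of protein-coding genes called, with a mean of at least 5 CPM and no overlap, up to 4 called members of each list in each direction (the 2 most abundant where fewer than 2 were called), genes the study measured, the 10 most abundant genes of each group, and 5 noncoding genes in each direction. Other members of lists, among them those of small counts and Gclm, Apcs, Orm1, Clec4f, Timd4 and S100a8, were named after their values were seen. Single lymphocyte markers are not named, and some other members are not reported here.

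Alternatives were a fit with DESeq2 1.42.0, DESeq2 size factors in edgeR, library totals, omission of mitochondrial genes, omission of the filter or a minimum of 10 counts in each library, a replicate block, a test against a log2 fold change of 1, the 6 compared libraries alone and each library left out. Leaving out Cont 1 and Cont 2 together was added after seeing the data. Promoter windows came from RefSeq (GRCm38.p6), matched by symbol for 11530 of 14657 tested coding genes, and 10 motifs were searched.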

Additional observations from a re-analysis of the deposited data

How the results depend on the processing

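The 984 calls (454 higher, 530 lower) became 3038 (2829 and 209) with library totals alone, 2121 (1038 and 1083) with no filter and 2427 (824 and 1603) with DESeq2. At least 10 counts in every library gave 1399 (519 and 880). A test against a log2 fold change of 1 gave 216 (60 and 156) and a fit of the 6 compared libraries 523 (221 and 302). Without Cont 1 and Cont 2 together, chosen after seeing the data, 262 were called (71 and 191). Without 1 library in turn, calls ranged from 242 to 1372, higher genes from 100 to 656 and lower genes from 142 to 716, the fewest without OA 2 and the most without Cont 3. A replicate block gave 578 (259 and 319). Same-numbered OA and Cont livers share only a number, with correlations of their deviations of −0.06, −0.01 and −0.04, so the block stands only as an alternative. The share of higher genes among calls was 46.1%, against 33.3% with DESeq2 size factors, 93.1% with library totals, 34.0% with DESeq2, 27.8% with the test against a log2 fold change of 1 and 27.1% without Cont 1 and Cont 2.

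No gene called in both the fit described and an alternative changed direction. Among all named genes, library totals alone turned 6 positive, Abcb11 (0.28), Bcl6 (0.085), Khk (0.22), Slc2a2 (0.066), Alad (0.38) and Onecut2 (0.27), and that scaling moved the median of all genes by 1.39. Against that median, 65 of 67 list medians kept their sign under the other scalings, the exceptions being canalicular export and sinusoidal endothelial markers. With 3 livers a group and 4946748 counts outside mitochondrial RNA and its copies in Cont 2, low genes were measured least well there. The cause of each change was not tested.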
